A study of Mus musculus with 12 samples.

Results

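The genes described here belong to the families that make, sense and remove cyclic AMP (cAMP). Some of the phosphodiesterase genes act on cyclic GMP (cGMP) instead or encode no enzyme. A rule on symbols, which uses no measured value, picked out the whole set. It took all numbered adenylyl cyclases (Adcy), the catalytic and regulatory subunits of protein kinase A (PKA) and all numbered phosphodiesterases (Pde). The gene set itself was chosen with earlier results of these data known. The rule found 40 of the 32285 genes in the files, namely 10 cyclases, 6 PKA genes and 24 phosphodiesterase genes. All 40 had at least 20 unique molecular identifiers (UMIs, the counted RNA molecules) over the adipocyte-like nuclei of the 12 libraries and are described. The totals ran from 22 for Adcy1 to 807186 for Prkar2b.

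Single-nucleus RNA sequencing had been done on mouse adipose tissue, to compare depots at several ages and the answer of each depot to cold. All mice were male C57BL/6J on normal chow, with no transgene or deletion named in the labels. Housing was at room temperature (22 °C) for 9 libraries: 3 of mPRAT and 3 of iBAT (aged 1, 2 and 6 months), 2 of lPRAT (aged 2 and 6 months) and 1 of iWAT (aged 6 months). The other 3 were taken from mPRAT, iBAT and iWAT of 6-month animals kept at 4 °C for 3 days. The labels do not spell out these abbreviations. mPRAT and lPRAT commonly stand for medial and lateral perirenal, iBAT for interscapular brown and iWAT for inguinal white adipose tissue. The animals called 6 months old in the titles are listed at 16 weeks in the age field, and those called 1 and 2 months at 4 and 8 weeks. Each group held 1 library, and how many animals went into a library is not given in the sources used here. A difference between conditions and a difference between animals or preparations cannot be told apart, and no test within a depot was possible. A test of cold that takes the 3 depots as pairs is given with the cold results.

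In an adipocyte, noradrenaline and other hormones act through G proteins on adenylyl cyclases in the cell membrane, which make cAMP from ATP. The cAMP binds the regulatory subunits of PKA and frees the catalytic subunits. These phosphorylate the machinery of lipolysis and, in thermogenic fat, drive transcription of genes such as Ucp1 through CREB proteins. Phosphodiesterases end the signal by hydrolysing cAMP, cGMP or both, and Pde3b is the classical route by which insulin restrains lipolysis.

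Levels are given as CPM, the UMIs of a gene per 1000000 UMIs summed over the adipocyte-like nuclei of a library. These nuclei numbered 1945 to 15304 per library and 64960 in all. The 8 adipocyte markers, among them Adipoq and Plin4, all had UMIs in every library and summed to 9597 to 14554 CPM. All markers of the endothelial (8), ASPC (8, adipose stem and progenitor cells) and macrophage (7) lists also had UMIs in the adipocyte-like nuclei of each library, as did 6 or 7 of the 7 mural and 5 to 7 of the 7 B cell markers. Epithelial-like nuclei were found in mPRAT only, and the 7 epithelial markers summed to 6.64 CPM in adipocyte-like nuclei of mPRAT at 6 months, 127 CPM in the cold and 0.610 to 64.8 CPM in the other 10 libraries. Library depth lay between 5461133 (lPRAT, 2 months) and 87035783 UMIs (cold iBAT). The mitochondrial limit removed 66.0% of barcodes in cold mPRAT, 22.1% in mPRAT at 2 months and 21.4% in lPRAT at 2 months, and at most 7.42% elsewhere. Any pair of libraries shared 3 to 76 barcodes, at most 0.734% of the smaller library. The cluster with the most adipocyte-like nuclei differed between libraries, such as cluster 11 in iBAT at 6 months (63.1%) and cluster 26 in cold iBAT (97.0%). In mPRAT these were cluster 1 at 6 months (42.8%, and 33.1% in the cold) and cluster 8 in the cold (56.6%), and in iWAT cluster 2 (68.8%) and, in the cold, cluster 1 (58.4%). Clusters 8 and 26 each had 6 of the 8 adipocyte markers raised over clusters of other classes, and the other adipocyte-like clusters 7 or 8. The genes that most set cluster 8 apart included Gstm1, S100a6, Sprr1a, mt-Nd1 and Ppargc1a. What RNA of other cells in cluster 8 adds to the cold mPRAT values was not tested.

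Prkar2b, the regulatory PKA subunit RII beta that predominates in adipose tissue, and Pde3b had the highest and next highest median of the set per length. To compare genes, CPM was divided by the length of the gene body in kilobases, which takes intronic reads to be counted, a point the sources used here do not give. On that scale the median over the 12 libraries was 28.0 for Prkar2b, 17.8 for Pde3b, 6.37 for Adcy6, 3.85 for Prkaca and 2.88 for Adcy9. Prkar2b ranked above the other 5 PKA genes and Pde3b above the other 23 phosphodiesterases in each of the 12 libraries by CPM per kilobase. Among all 40, Adcy6 stood above Pde3b in iBAT at 1 month (12.6 and 7.03 CPM per kilobase), and the values were 10.1 for Adcy6, 10.2 for Adcy3 and 9.96 for Pde3b in cold iBAT. Per kilobase the leading cyclase differed: Adcy6 led in 9 libraries, Adcy5 in lPRAT at 2 and 6 months and, narrowly, Adcy3 in cold iBAT. By plain CPM Adcy9 was above Adcy6 in every library, with means over the 12 libraries of 451 and 141 CPM. At the other end, Adcy1, Adcy4, Adcy8, Pde6b, Pde6c and Pde9a stayed under 2 CPM in every library.

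**Figure D1:**
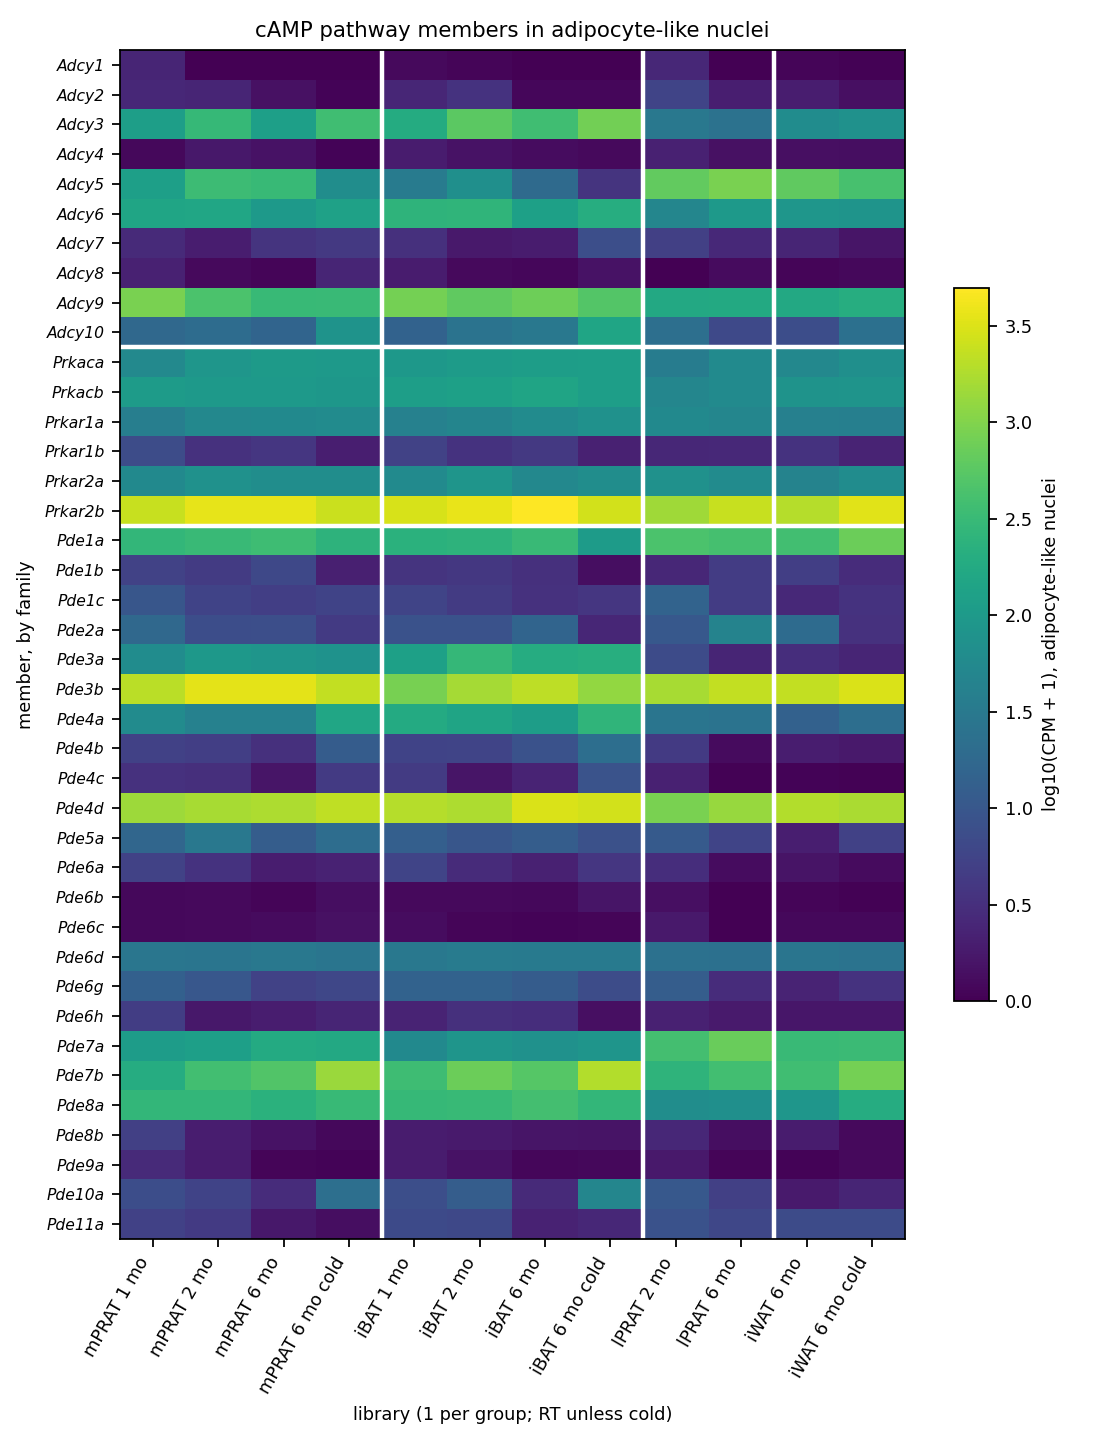
Level of each of the 40 members (rows, grouped as cyclases, PKA genes and phosphodiesterases) in adipocyte-like nuclei of each of the 12 libraries (columns), as log10(CPM + 1) on the colour scale. Prkar2b, Pde3b and Pde4d form the bright rows throughout. Adcy5 is brighter than Pde3a in lPRAT and iWAT and dimmer in iBAT, and both are counted in mPRAT.

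Cold libraries had more Adcy10 and Pde7b than their room-temperature counterparts in mPRAT, iBAT and iWAT, and more members passed 2-fold in iBAT (13) and mPRAT (9) than in iWAT (5). Ratios are log2 of cold over room temperature CPM at 6 months, with 1 CPM added to each, and brackets hold 95% intervals that cover counting error only. A gene is counted as higher or lower when it differed at least 2-fold and had at least 20 UMIs over both libraries. In mPRAT, 7 of 32 members with enough UMIs were higher in the cold, as were 7.99% of all genes, and 2 were lower, as were 7.19% of all genes. In iBAT 8 of 37 were higher and 5 lower, beside 5.63% and 8.77% of all genes. In iWAT 4 of 34 were higher and 1 lower, beside 2.53% and 5.73% of all genes. The median log2 ratio of the members was 0.14, 0.08 and 0.02 in mPRAT, iBAT and iWAT, beside -0.03, -0.09 and -0.18 for all genes. TMM scaling, which sets aside the most extreme genes, raised the median of all genes by 0.20 in the iBAT comparison, and each of the 13 members there stayed past 2-fold. With 10 CPM added in place of 1, which damps low genes, 8 members passed 2-fold in iBAT and 3 in iWAT. Cold mPRAT, the library that lost most barcodes to the mitochondrial limit, also gave 9 members past 2-fold with that limit at 5%. That setting kept 2000 of its 2145 adipocyte-like nuclei. Barcodes over 10% were left out either way, so what they would have changed was not tested.

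The mPRAT and iBAT comparisons share no library. All 7 members higher in cold mPRAT (Adcy3, Adcy10, Pde4a, Pde4b, Pde4c, Pde7b and Pde10a) were also higher in cold iBAT, where they made up 87.5% of the 8, the other being Adcy7. With 10 CPM added, Adcy3, Adcy10, Pde4a, Pde7b and Pde10a stayed past 2-fold in both depots, while Pde4b and Pde4c in both and Adcy7 in iBAT came within it. Of all 1187 genes higher in cold mPRAT, 38.4% were also higher in cold iBAT, where they made up 49.6% of those higher. Both members lower in cold mPRAT, Adcy5 and Pde1b, were among the 5 lower in cold iBAT, beside 50.7% of all genes lower in cold mPRAT. Other members ran in opposite directions without reaching 2-fold, such as Pde5a, with log2 ratios of 0.79 in mPRAT and -0.60 in iBAT, and Pde8a, with 0.45 and -0.44. Epithelial-like nuclei held a median of 165 CPM of Pde5a and 15.4 CPM of Pde4b, and the part of the higher epithelial marker sum of cold mPRAT in these ratios was not tested. Adcy10 and Pde7b were the 2 members higher in the cold in all 3 depots, as were 75 of all genes, and no member was lower in all 3, beside 127 of all genes. Over the 3 depots 15 of 38 members with enough UMIs (39.5%) passed the limit in at least 1 comparison, as did 24.6% of all genes. None of the 15 passed it in both directions, against 3.11% of all genes that passed it.

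Cold was also tested across depots, in an analysis added after the data had been seen. It took mPRAT, iBAT and iWAT at 6 months as 3 pairs, so depots stand in for replicates and a response that differs between depots counts as error. With edgeR's quasi-likelihood test and Benjamini-Hochberg adjustment over 18585 genes, 0 of 39 members passed an adjusted p of 0.05 in either direction, beside 0% of all genes higher and 0.00538% (1 gene) lower. The members nearest to it were Adcy10, with a log2 ratio of 2.35 (adjusted p = 0.051), and Pde7b, with 1.65 (adjusted p = 0.058). An unadjusted p under 0.05 was reached by 13 members, or 33.3%, and by 19.1% of all genes. DESeq2 on the same design gave 6 members higher (Adcy3, Adcy10, Pde4a, Pde4c, Pde7b and Pde10a) and 3 lower (Adcy5, Pde1b and Pde2a) of 34 with an adjusted p, beside 5.88% and 4.35% of all genes. Without iWAT edgeR gave 9 of 39 members, beside 1878 of 17620 genes. Without iBAT it gave 1 of 37 (Adcy10), beside 108 of 16830 genes. Without mPRAT it gave 0 of 39, beside 0 of 17788 genes. Each of these fits left 1 residual degree of freedom. The calls of this test thus depended on the tool and on which depots entered it.

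**Figure D2:**
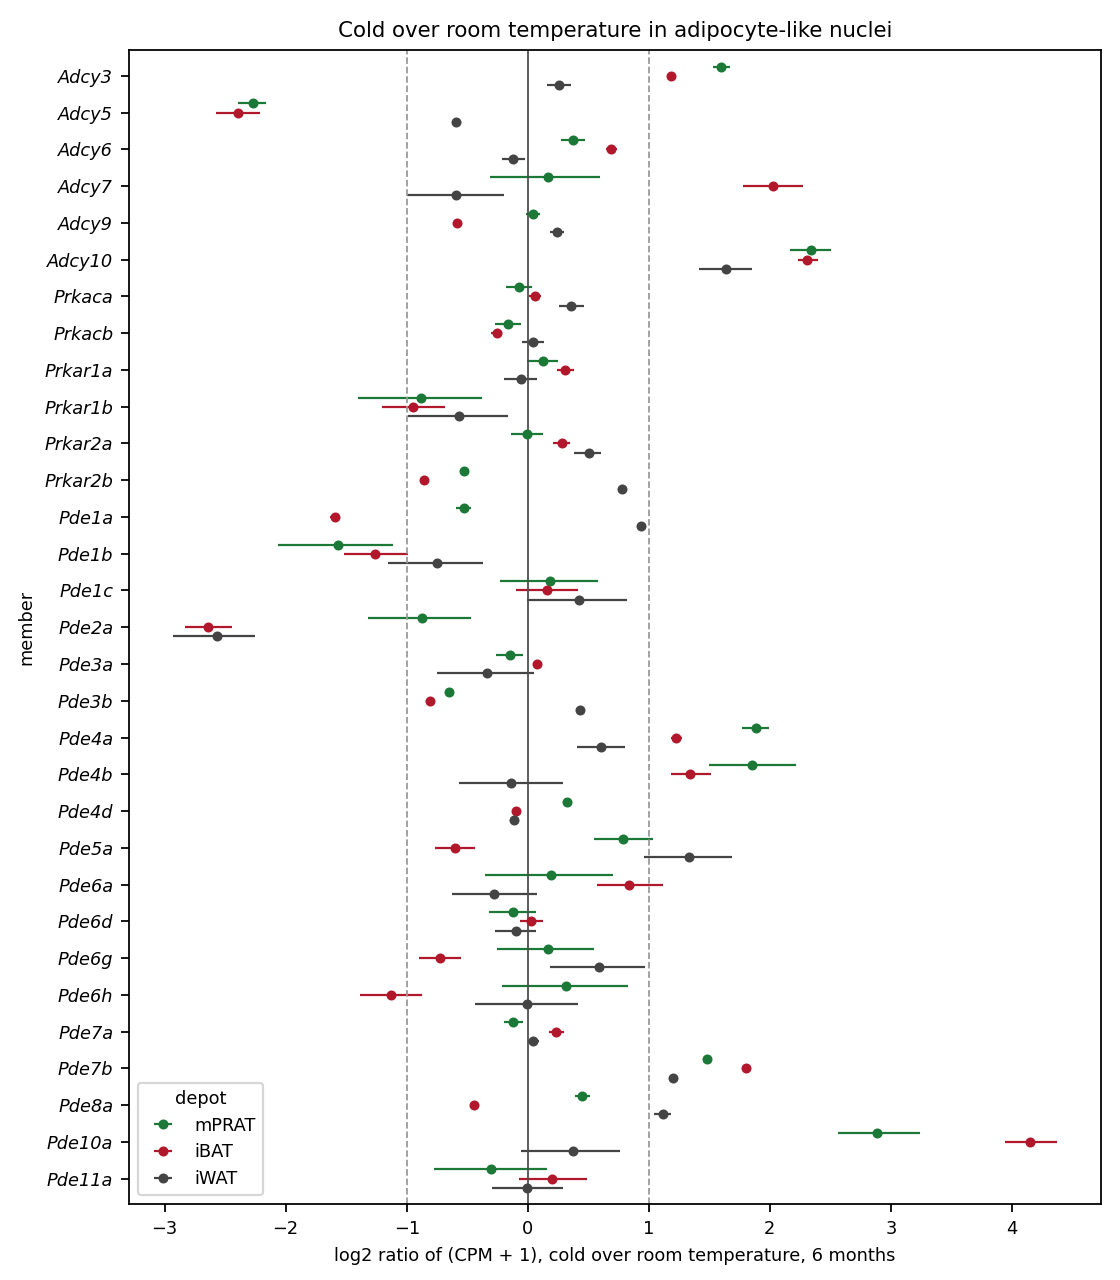
Log2 ratio of (CPM + 1) in adipocyte-like nuclei, cold over room temperature at 6 months, for the members with at least 20 UMIs in all 3 comparisons. Points are single library pairs coloured by depot, bars are 95% counting intervals, and dashed lines mark 2-fold. Adcy10 and Pde7b lie to the right of 1 in all 3 depots, Adcy5 lies left of -1 in mPRAT and iBAT.

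Among the cyclases, Adcy3 and Adcy5 were arranged in opposite ways over the depots. Adcy3 (ENSMUSG00000020654, chr12:4133103-4213525, plus strand, GRCm38) is a membrane cyclase best known from olfactory neurons. Its level was 119, 295 and 121 CPM in mPRAT at 1, 2 and 6 months, 186, 587 and 358 CPM in iBAT, 29.5 and 24.0 CPM in lPRAT at 2 and 6 months and 61.8 CPM in iWAT. The cold levels of Adcy3 were 369.6 CPM (mPRAT), 817 CPM (iBAT) and 74.2 CPM (iWAT). Its log2 ratio in the cold was 1.60 (1.53 to 1.67) in mPRAT and 1.19 (1.16 to 1.21) in iBAT, and in iWAT it was 0.26 (0.16 to 0.36), short of the limit. Cold iBAT was thus the highest library and lPRAT the lowest, and mPRAT and iBAT had their highest room-temperature value at 2 months. The log2 ratio of 2 over 1 month was 1.31 in mPRAT and 1.65 in iBAT, and from 2 to 6 months it was -1.28 in mPRAT and -0.71 in iBAT.

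Adcy5 (ENSMUSG00000022840, chr16:35154877-35305738, plus strand), one of the cyclases inhibited by calcium and by Gi proteins, ran the other way. It was counted at 632 and 896 CPM in lPRAT and 628 CPM in iWAT. In mPRAT it reached 122, 340.3 and 308 CPM at 1, 2 and 6 months, and in iBAT only 33.8, 68.7 and 18.2 CPM. At 6 months its log2 ratio was 4.01 (3.91 to 4.12) for mPRAT over iBAT, -5.04 (-5.14 to -4.93) for iBAT over iWAT and -1.54 (-1.58 to -1.50) for mPRAT over lPRAT. Each depot with a cold library had less Adcy5 in the cold. The cold levels were 63.2 CPM (mPRAT), 2.64 CPM (iBAT, 185 UMIs) and 417 CPM (iWAT). The log2 ratios were -2.27 (-2.39 to -2.16), -2.40 (-2.58 to -2.22) and -0.59 (-0.63 to -0.55), the last of them within 2-fold.

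Adcy10 (ENSMUSG00000026567, chr1:165485183-165576774, plus strand) is the soluble cyclase, which answers to bicarbonate and calcium rather than to G proteins. At room temperature it was a minor transcript in all 4 depots, with 16.6, 19.5 and 14.5 CPM in mPRAT, 13.5, 24.5 and 29.1 CPM in iBAT, 21.5 and 5.44 CPM in lPRAT and 6.42 CPM in iWAT. The cold libraries held 77.3 CPM (mPRAT), 148 CPM (iBAT) and 22.1 CPM (iWAT). The log2 ratios were 2.34 (2.16 to 2.51), 2.31 (2.23 to 2.40) and 1.64 (1.42 to 1.86), or 5.34-, 5.10- and 3.45-fold as plain CPM. The cold library was the highest of its depot in each case. The iWAT value dropped to 0.97 when 10 CPM was added in place of 1.

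Adcy9 and Adcy6 stayed within 2-fold in the cold. With age Adcy9 passed it in mPRAT, and Adcy6 only just in iBAT and lPRAT. Adcy9, a cyclase that responds poorly to forskolin, was at 904, 449 and 306 CPM in mPRAT at 1, 2 and 6 months and 316 CPM in the cold. In iBAT it was at 847, 619 and 760.1 CPM and 505 CPM in the cold, while lPRAT (168 and 173 CPM) and iWAT (169.7 CPM, 201 CPM in the cold) were lower. In mPRAT the log2 ratio of 6 over 1 month was -1.56 (-1.61 to -1.51), so the 6-month library lay between iBAT and the pair of lPRAT and iWAT. Adcy6, a relative of Adcy5, was at 150.1, 155 and 101 CPM in mPRAT, 253, 259 and 125 CPM in iBAT, 48.3 and 97.7 CPM in lPRAT and 87.4 CPM in iWAT. Its cold levels were 131, 203 and 80.3 CPM in mPRAT, iBAT and iWAT, with log2 ratios of 0.37, 0.69 and -0.12. In iBAT the log2 ratio of Adcy6 for 6 over 1 month was -1.01 (-1.07 to -0.94). It came within 2-fold under 3 of 10 other settings of the processing, which gave -1.05 to -0.94.

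Adcy7, a cyclase prominent in blood and immune cells, had 1.78, 1.01, 2.61 and, in the cold, 3.05 CPM in mPRAT. In iBAT it had 2.21, 0.817, 0.907 and 6.77 CPM, in lPRAT 3.99 and 1.71 CPM, and in iWAT 1.42 and 0.603 CPM. The cold iBAT library was the highest, with a log2 ratio of 2.03 (1.78 to 2.27) on 474 and 36 UMIs. With 10 CPM added the ratio was 0.62. T or NK-like nuclei held a median of 219.7 CPM and macrophage-like nuclei 213 CPM. The macrophage markers in the adipocyte-like nuclei of iBAT summed to 5.37 CPM at room temperature and 3.90 CPM in the cold. Among nuclei with no UMI of the macrophage, B, T or NK and endothelial markers the Adcy7 ratio was 2.01. The remaining cyclases, Adcy1, Adcy2, Adcy4 and Adcy8, lay between 0 and 4.79 CPM.

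**Figure D3:**
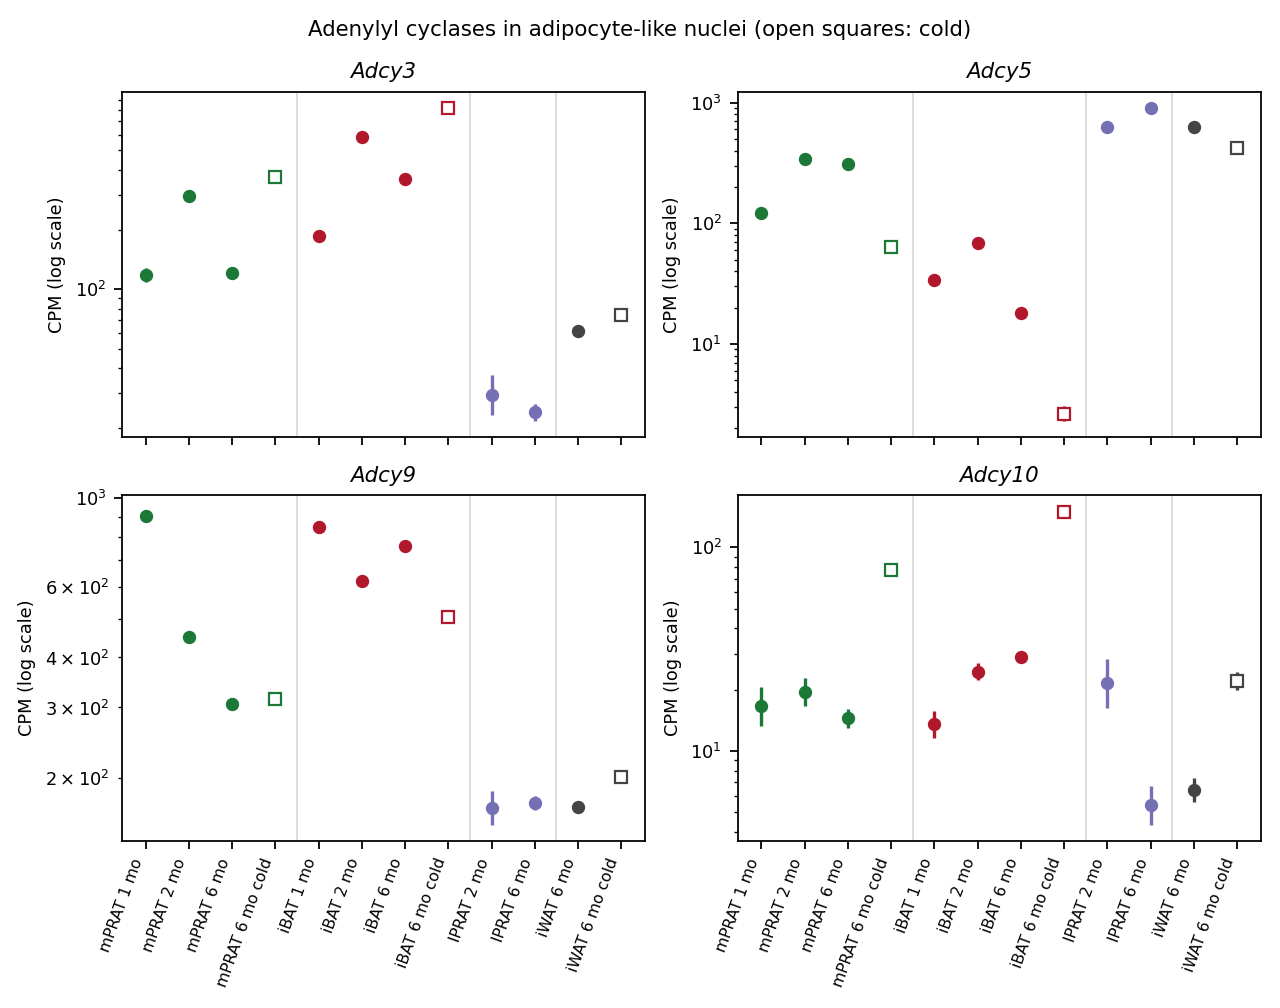
Level of Adcy3, Adcy5, Adcy9 and Adcy10 in adipocyte-like nuclei of each of the 12 libraries, in CPM on a log axis, with exact 95% Poisson intervals (counting error). Filled circles are room temperature and open squares cold. Adcy3 and Adcy10 have their highest value in cold iBAT, where Adcy5 has its lowest.

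The PKA genes were counted in every library. Prkar2b (ENSMUSG00000002997, chr12:31958476-32061296, minus strand) stood at 2416, 3601 and 3622 CPM in mPRAT and 3009, 3744 and 4965 CPM in iBAT at 1, 2 and 6 months. It stood at 1451 and 2406 CPM in lPRAT and 1942 CPM in iWAT. The older library was the higher in each of mPRAT, iBAT and lPRAT, and iBAT exceeded iWAT at 6 months by a log2 ratio of 1.35 (1.34 to 1.37). In the cold Prkar2b was lower in 2 depots, at 2513 CPM in mPRAT and 2747 CPM in iBAT, and higher in iWAT, at 3339 CPM. These log2 ratios, -0.53 (-0.55 to -0.51), -0.85 (-0.86 to -0.85) and 0.78 (0.76 to 0.80), were within 2-fold. Their signs held under all 10 other settings of the processing, with ranges of -0.65 to -0.51, -0.87 to -0.58 and 0.65 to 0.87.

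Both catalytic subunits stayed within 2-fold in the cold. Prkacb (C beta) had 107, 100.0, 98.8 and, in the cold, 88.1 CPM in mPRAT, and 117, 124, 141 and 118 CPM in iBAT. In lPRAT it had 49.5 and 58.2 CPM and in iWAT 78.5 and 81.1 CPM. Its log2 ratio in the cold lay between -0.26 (iBAT) and 0.05 (iWAT). Prkaca (C alpha) was lowest in lPRAT at 2 months, with 35.1 CPM, and highest in cold iBAT, with 116 CPM, and its cold ratios were -0.07, 0.06 and 0.36 in mPRAT, iBAT and iWAT. It passed 2-fold between depots, with 1.06 (0.98 to 1.13) for iBAT over iWAT. Prkar1a and Prkar2a stayed between 37.2 and 82.7 CPM, and Prkar1b, which a same-strand gene (Gm15672) overlaps, between 1.05 and 6.33 CPM. None of the 6 PKA genes passed 2-fold in cold against room temperature within a depot. Over the 3 depots as pairs the log2 ratio of Prkar1b was -1.09 (edgeR adjusted p = 0.23).

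Pde3b and Pde3a hydrolyse cAMP and are inhibited by cGMP. Pde3b (ENSMUSG00000030671, chr7:114415281-114539251, plus strand) was at 2064, 3475 and 3559 CPM in mPRAT, 872, 1595 and 2158 CPM in iBAT, 1634 and 2288 CPM in lPRAT and 2286 CPM in iWAT. The level was higher in the older library in each depot with several ages, and in iBAT the log2 ratio of 6 over 1 month was 1.31 (1.28 to 1.33). The cold levels were 2268 CPM (mPRAT), 1235 CPM (iBAT) and 3083 CPM (iWAT), for log2 ratios of -0.65 (-0.67 to -0.63), -0.80 (-0.82 to -0.79) and 0.43 (0.42 to 0.45). As with Prkar2b, mPRAT and iBAT were lower and iWAT higher in the cold, each within 2-fold.

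Pde3a, the isoform best known from heart and smooth muscle, separated the depots. It was at 127, 290.2, 194 and, in the cold, 205 CPM in iBAT and at 61.3, 91.8, 82.4 and 74.5 CPM in mPRAT. In lPRAT it was at 5.99 and 1.44 CPM and in iWAT at 2.09 and, in the cold, 1.45 CPM. All 8 mPRAT and iBAT libraries exceeded all 4 lPRAT and iWAT libraries. At 6 months the log2 ratio was 5.98 (5.76 to 6.21) for iBAT over iWAT, 4.75 (4.53 to 4.99) for mPRAT over iWAT and 5.09 (4.76 to 5.47) for mPRAT over lPRAT. Mural-like nuclei held a median of 1390.5 CPM of Pde3a. The mural markers in adipocyte-like nuclei summed to 10.1 CPM in iBAT, 13.1 CPM in mPRAT, 19.1 CPM in lPRAT and 61.7 CPM in iWAT at 6 months, and among nuclei with no UMI of the mural and ASPC markers the Pde3a ratio was 6.11 for iBAT over iWAT and 5.72 for mPRAT over lPRAT.

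The cAMP-specific Pde4 family differed within itself. Pde4d (ENSMUSG00000021699, chr13:108449948-109953461, plus strand) was the most counted of the family, at 1421, 1639, 1767 and, in the cold, 2214 CPM in mPRAT and 1899, 1752, 3019 and 2817 CPM in iBAT. It was at 899.9 and 1341 CPM in lPRAT and 1849 and 1709 CPM in iWAT. Pde4d stayed within 2-fold in the cold, with log2 ratios from -0.11 in iWAT to 0.33 in mPRAT. Its gene body is 1504 kb long, and its median per kilobase was 1.17 CPM, rank 14 of 40.

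Pde4a (ENSMUSG00000032177, chr9:21165714-21213248, plus strand) was at 60.5, 41.3, 41.1 and, in the cold, 154 CPM in mPRAT and 184, 143, 112 and 264 CPM in iBAT. In lPRAT it was at 25.9 and 25.0 CPM and in iWAT at 13.1 and 20.5 CPM. The cold library was the highest of its depot in mPRAT and iBAT, with log2 ratios of 1.88 (1.77 to 1.99) and 1.23 (1.18 to 1.27), while iWAT gave 0.61 (0.41 to 0.80). Among depots at 6 months it was 3.00 (2.87 to 3.13) for iBAT over iWAT and -1.43 (-1.52 to -1.33) for mPRAT over iBAT.

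Pde4b and Pde4c were far scarcer. Pde4b had 4.15, 3.91, 2.28 and, in the cold, 10.9 CPM in mPRAT and 4.59, 4.67, 7.41 and 20.4 CPM in iBAT. It had 3.19 and 0.262 CPM in lPRAT and 0.959 and 0.784 CPM in iWAT. The cold log2 ratio was 1.85 (1.50 to 2.21) in mPRAT and 1.34 (1.18 to 1.52) in iBAT, and B-like nuclei held a median of 196 CPM. The B markers in adipocyte-like nuclei summed to 59.9 CPM in mPRAT at 6 months and 5.44 CPM in the cold, and to 8.89 and 4.98 CPM in iBAT, and among nuclei with no UMI of the macrophage, B, T or NK and endothelial markers the Pde4b ratio was 1.90 in mPRAT and 1.29 in iBAT. With 10 CPM added in place of 1 the Pde4b ratio came within 2-fold, at 0.76 in mPRAT and 0.80 in iBAT. Pde4c had 2.37, 2.14, 0.623 and 3.24 CPM in mPRAT, 3.36, 0.642, 1.36 and 7.75 CPM in iBAT, 1.20 and 0.0656 CPM in lPRAT and 0.0872 and 0.0603 CPM in iWAT. The cold log2 ratio of Pde4c was 1.39 (0.89 to 1.82) in mPRAT and 1.89 (1.65 to 2.13) in iBAT, and with 10 CPM added it was 0.32 and 0.64. Mural-like nuclei of iBAT also differed, with 55.5 CPM at room temperature and 257 CPM in the cold. Among adipocyte-like nuclei of iBAT with no UMI of the mural and ASPC markers, a setting added after the data had been seen, the Pde4c ratio was 1.74. Mural-like nuclei were the highest class for Pde4c, with a median of 56.7 CPM. In the mPRAT pair the mural marker sum was higher in the cold, as given with Pde10a below. The part of mural RNA in the mPRAT ratio of Pde4c was not tested.

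Pde7 enzymes are cAMP-specific and insensitive to the common Pde4 inhibitors, and the pair diverged. Pde7b (ENSMUSG00000019990, chr10:20398004-20725078, minus strand) was the member with the most UMIs among those higher in the cold. It was at 193, 378 and 497 CPM in mPRAT, 349.8, 738 and 527 CPM in iBAT, 255 and 376 CPM in lPRAT and 359 CPM in iWAT. In the cold it reached 1386 CPM (mPRAT), 1842 CPM (iBAT) and 827 CPM (iWAT), above every room-temperature library. The log2 ratios were 1.48 (1.44 to 1.51), 1.80 (1.78 to 1.82) and 1.20 (1.17 to 1.24), and over the other 10 settings of the processing they ran from 1.43 to 1.64, 1.76 to 2.07 and 1.16 to 1.29. In mPRAT Pde7b was also higher with age, by 1.36 (1.27 to 1.45) for 6 over 1 month.

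Pde7a (ENSMUSG00000069094, chr3:19223108-19311322, minus strand) followed depot instead of temperature. It was at 395 and 710.0 CPM in lPRAT and 318 and, in the cold, 328 CPM in iWAT. It was at 111, 122, 182 and 167 CPM in mPRAT and 55.1, 84.1, 71.9 and 84.7 CPM in iBAT. All 4 lPRAT and iWAT libraries lay above all 4 mPRAT libraries, and those above all 4 iBAT libraries. The log2 ratio at 6 months was -2.13 (-2.19 to -2.07) for iBAT over iWAT, 1.32 (1.26 to 1.39) for mPRAT over iBAT and -1.96 (-2.01 to -1.91) for mPRAT over lPRAT, while the 3 cold ratios lay between -0.12 and 0.23.

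**Figure D4:**
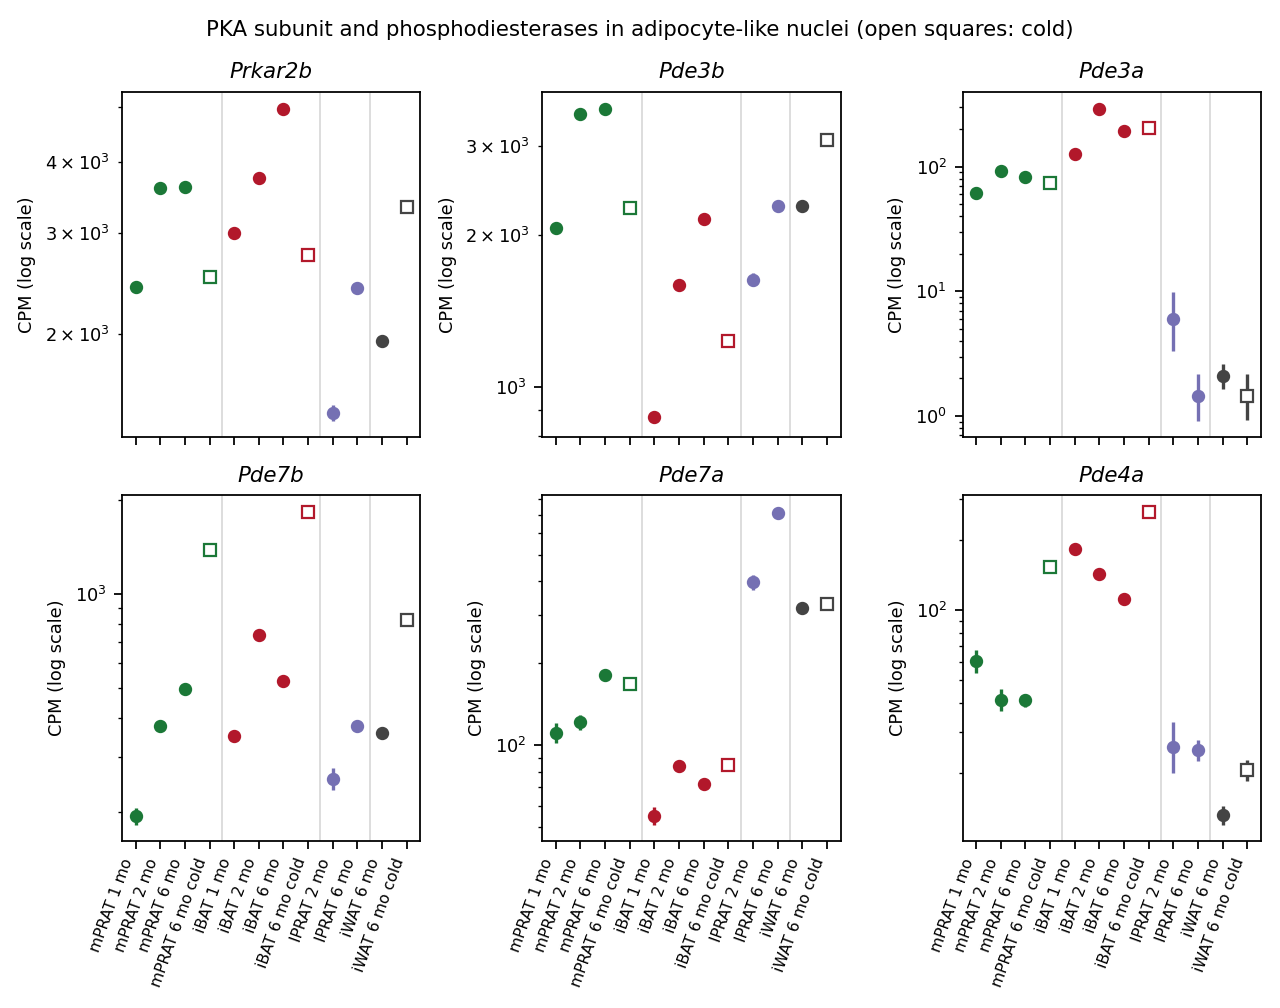
Level of Prkar2b and 5 phosphodiesterases in adipocyte-like nuclei of each of the 12 libraries, in CPM on a log axis whose range differs by panel, with exact 95% Poisson intervals (counting error). Filled circles are room temperature and open squares cold. Pde3a is lowest and Pde7a highest in lPRAT and iWAT, and the 3 cold libraries are the 3 highest for Pde7b.

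Pde8a, a high-affinity cAMP enzyme insensitive to the general inhibitor IBMX, was at 275, 277, 225 and, in the cold, 308 CPM in mPRAT and 302, 304, 384 and 282 CPM in iBAT. In lPRAT it was at 63.1 and 68.6 CPM and in iWAT at 87.9 and 191 CPM. Cold iWAT stood above its room-temperature library by a log2 ratio of 1.11 (1.04 to 1.19), while mPRAT gave 0.45 (0.39 to 0.51) and iBAT -0.44 (-0.48 to -0.41). All 8 mPRAT and iBAT libraries were above all 4 lPRAT and iWAT libraries, and iBAT over iWAT at 6 months was 2.12 (2.06 to 2.17).

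Pde1 enzymes are switched on by calcium and calmodulin and hydrolyse cAMP and cGMP. Pde1a was at 276, 319.9, 354 and, in the cold, 246 CPM in mPRAT and 230.1, 243, 324 and 107 CPM in iBAT. It was at 439.8 and 399 CPM in lPRAT and 377 and 724 CPM in iWAT. The extremes were both cold libraries, iBAT lowest and iWAT highest, with cold log2 ratios of -1.59 (-1.63 to -1.55) in iBAT, 0.94 (0.90 to 0.98) in iWAT and -0.53 (-0.59 to -0.47) in mPRAT. Pde1b had 4.35, 3.40, 5.35 and, in the cold, 1.14 CPM in mPRAT, 2.54, 2.92, 2.29 and 0.371 CPM in iBAT, 1.60 and 3.61 CPM in lPRAT and 3.92 and 1.93 CPM in iWAT. Its cold log2 ratios were -1.57 (-2.06 to -1.11), -1.26 (-1.52 to -0.99) and -0.75 (-1.16 to -0.37) in mPRAT, iBAT and iWAT, on 12, 26 and 32 UMIs in the cold libraries. With 10 CPM added they were -0.46 in mPRAT and -0.25 in iBAT. Dendritic-like nuclei held a median of 35.1 CPM of Pde1b and B-like nuclei 26.8 CPM. B-like nuclei made up 34.0% of the mPRAT library at 6 months and 0.694% in the cold. The Pde1b ratio of mPRAT kept its sign among nuclei with no UMI of the macrophage, B, T or NK and endothelial markers. How much RNA of B-like nuclei adds to this ratio was not measured.

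Pde10a and Pde2a, which also act on cAMP and cGMP, held the highest and the lowest cold ratio of the set. Pde10a (ENSMUSG00000023868, chr17:8525372-8986648, plus strand) had 6.53, 4.54, 1.99 and, in the cold, 21.2 CPM in mPRAT and 6.72, 11.3, 1.76 and 48.0 CPM in iBAT. It had 9.58 and 4.00 CPM in lPRAT and 0.843 and 1.39 CPM in iWAT. The cold log2 ratio was 2.89 (2.56 to 3.24) in mPRAT and 4.15 (3.94 to 4.37) in iBAT, but 0.37 (-0.06 to 0.77) in iWAT. Mural-like nuclei held far more, 2362 CPM in iBAT at 6 months and 3009 CPM in the cold. The mural markers in adipocyte-like nuclei summed to 10.1 and 9.49 CPM in those iBAT libraries and to 13.1 and 25.5 CPM in the mPRAT pair. Among adipocyte-like nuclei with no UMI of the mural and ASPC markers the ratio was 3.30 in mPRAT and 4.14 in iBAT.

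Pde2a, the cGMP-stimulated enzyme, had 16.6, 6.55, 6.77 and, in the cold, 3.24 CPM in mPRAT and 7.46, 7.47, 14.3 and 1.46 CPM in iBAT. It had 9.58 and 44.5 CPM in lPRAT and 18.9 and 2.35 CPM in iWAT. The cold libraries were the lowest of their depots, with log2 ratios of -0.87 (-1.32 to -0.47), -2.64 (-2.83 to -2.44) and -2.57 (-2.93 to -2.25) in mPRAT, iBAT and iWAT. Endothelial-like nuclei held a median of 308 CPM of Pde2a. The endothelial markers in adipocyte-like nuclei summed to 317 CPM in iBAT at 6 months and 150.0 CPM in the cold, and to 38.8 and 48.9 CPM in iWAT. Among nuclei with no UMI of the macrophage, B, T or NK and endothelial markers, the Pde2a ratio was -2.61 in iBAT and -2.84 in iWAT.

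Pde5a, specific for cGMP, had 15.8, 28.9, 11.1 and, in the cold, 19.9 CPM in mPRAT, 11.96, 8.76, 11.4 and 7.18 CPM in iBAT, 9.98 and 4.79 CPM in lPRAT and 1.08 and 4.22 CPM in iWAT. Its cold log2 ratio was 1.33 (0.96 to 1.69) in iWAT, but 0.03 with nuclei thinned to 1000 UMIs each and 0.36 with 10 CPM added. Pde6h, an inhibitory subunit of the photoreceptor enzyme, had 3.76, 0.756, 0.955 and 1.43 CPM in mPRAT, 1.31, 2.22, 2.07 and 0.400 CPM in iBAT, 1.20 and 0.853 CPM in lPRAT and 0.669 and 0.664 CPM in iWAT. It was lower in cold iBAT by a log2 ratio of -1.13 (-1.38 to -0.87), on 28 and 82 UMIs, and by -0.21 with 10 CPM added. Pde6d, a carrier of prenylated proteins rather than an enzyme, was the steadiest member, between 21.9 and 33.6 CPM. Of the other Pde6, Pde8b, Pde9a, Pde11a and Pde1c genes, none exceeded 14.0 CPM.

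The age comparisons share their 6-month library with the cold and depot comparisons of the same depot. From 1 to 6 months, 2 of 33 members with enough UMIs were higher in mPRAT and 10 lower, beside 5.16% and 8.25% of all genes. In iBAT 2 of 35 were higher and 5 lower, beside 4.46% and 6.08% of all genes. From 2 to 6 months in lPRAT 2 of 29 were higher and 6 lower, beside 12% and 9.7%. Only 3 members passed 2-fold in mPRAT, 1 in iBAT and 2 in lPRAT with 10 CPM added. Most of those lower in mPRAT were scarce: without Adcy9, the other 9 had at most 16.6 CPM at 1 month. In brackets from here on are the log2 ratio and its interval. Higher with age in mPRAT were Adcy5 (1.33, 1.21 to 1.45) and Pde7b, and in iBAT Pde3b and Adcy10 (1.05, 0.84 to 1.29). In lPRAT Pde2a (2.11, 1.65 to 2.74) and Adcy6 (1.00, 0.76 to 1.27) were higher and Adcy10 (-1.81, -2.25 to -1.34), Pde1c (-1.74, -2.26 to -1.17) and Pde6g (-2.07, -2.62 to -1.44) lower. The lPRAT library at 2 months was the shallowest, with a median of 874 UMIs per kept nucleus, and its adipocyte-like nuclei held 124 CPM of macrophage markers against 17.8 CPM at 6 months. Among nuclei with no UMI of the macrophage, B, T or NK and endothelial markers the ratio of Pde2a there was 1.86. With nuclei thinned to 1000 UMIs each, Pde2a alone of the 8 kept its call. Adcy6 and Adcy10 came within 2-fold, at 0.89 and -0.95, while Pde1c (-1.26), Pde6g (-2.45) and Pde10a (-1.57) stayed past it but fell under 20 UMIs.

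Scarce members lower with age by the same rule were Pde10a, by -1.33 (-1.84 to -0.78) in mPRAT, -1.48 (-1.82 to -1.11) in iBAT and -1.08 (-1.66 to -0.40) in lPRAT. In iBAT Pde11a (-1.61, -1.96 to -1.24) and Pde6a (-1.41, -1.78 to -1.03) were lower. Pde6g (-1.34, -1.73 to -0.91), Pde2a (-1.18, -1.52 to -0.82) and Pde1c (-1.01, -1.46 to -0.54) were lower in mPRAT. ASPC-like nuclei held a median of 323 CPM of Pde11a and 24.2 CPM of Pde1c. The ASPC markers in adipocyte-like nuclei summed to 189.9 CPM in iBAT at 1 month and 111 CPM at 6 months, and to 196 and 195 CPM in mPRAT. Among nuclei with no UMI of the mural and ASPC markers, Pde11a in iBAT was at -1.59 and Pde10a at -1.46 in mPRAT and -1.78 in iBAT, while Pde1c in mPRAT (-0.80) and Pde10a in lPRAT (-0.42) came within 2-fold.

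Between depots at 6 months and room temperature, the most members passed 2-fold for iBAT over iWAT among the 4 pairs compared. Of 35 members with enough UMIs 12 were higher in iBAT and 3 in iWAT, beside 12.3% and 11.4% of all genes. For mPRAT over iBAT 2 were higher and 6 lower of 34, beside 7.74% and 4.05% of all genes. For mPRAT over lPRAT 6 were higher and 4 lower of 33, beside 6.96% and 7.06%. For mPRAT over iWAT 6 were higher and 3 lower of 34, beside 7.51% and 4.77%. With 10 CPM added, 9 members in place of 15 passed 2-fold for iBAT over iWAT, 6 in place of 10 for mPRAT over lPRAT and 4 in place of 9 for mPRAT over iWAT. Pde5a (0.95), Pde6g (0.89), Pde11a (-0.52) and Prkaca (0.95) were among those that came within it for iBAT over iWAT. These comparisons share libraries. Beside Pde3a, Pde4a and Pde8a, the members higher in iBAT than iWAT included Adcy3 (2.52, 2.46 to 2.58), Adcy9 (2.16, 2.12 to 2.20), Adcy10 (2.02, 1.84 to 2.21), Pde5a (2.58, 2.31 to 2.85) and Pde6g (2.37, 2.11 to 2.64). Those higher in iWAT were Adcy5, Pde7a and Pde11a (-1.67, -1.96 to -1.39). The median level of Pde11a was 323 CPM in ASPC-like and 4.67 CPM in adipocyte-like nuclei. The ASPC markers in adipocyte-like nuclei summed to 111 CPM in iBAT and 339.8 CPM in iWAT at 6 months. Over 10 other settings of the processing the Pde11a ratio ran from -1.74 to -0.52 and came within 2-fold under 2. These settings included nuclei with no UMI of the mural and ASPC markers. How much ASPC RNA adds to the Pde11a ratio was not measured. In mPRAT relative to iBAT, Adcy3 (-1.56, -1.61 to -1.50), Adcy9 (-1.31, -1.35 to -1.27) and Pde3a (-1.23, -1.30 to -1.16) were lower and Adcy5 and Pde7a higher. The mPRAT library thus lay between iBAT and iWAT for Adcy3, Adcy5, Adcy9, Pde3a, Pde4a, Pde7a and Pde8a. Other members did not follow this order: mPRAT lay above both for Pde3b and Pde1b, for example, and below both for Pde4d and Pde2a.

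Within mPRAT and iWAT, nuclei with a UMI of Ucp1, the uncoupling protein of thermogenic fat, were set against the rest of the same library. A Ucp1 UMI was found in 1026 of 3333 adipocyte-like nuclei of mPRAT at 6 months (30.8%), 1308 of 2145 of cold mPRAT (61.0%) and 145 of 2672 of cold iWAT (5.43%). In endothelial-like nuclei of these libraries the shares were 3.34%, 10.2% and 0 of 407 nuclei, which allows a share of up to 0.737%. ASPC-like nuclei of cold iWAT held one in 6 of 788 (0.761%, median depth 1493 UMIs). The median depths of the endothelial-like nuclei were 1990.0, 1249 and 895 UMIs against 6171, 4406 and 4714 in adipocyte-like nuclei. With each nucleus thinned to 1000 UMIs and shallower ones left out, the adipocyte-like shares were 13.9% of 3331, 41.7% of 2063 and 2.62% of 2637 nuclei, and the endothelial-like shares of the mPRAT libraries were 1.76% of 284 and 11.1% of 99. The thinned ASPC-like share of cold iWAT was 0.906% of 552 nuclei.

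In cold mPRAT, Adcy3 was at 553 CPM in nuclei with a Ucp1 UMI and 88.7 CPM in the others, a log2 ratio of 2.62 (2.47 to 2.78). Pde3a (3.85, 3.43 to 4.37), Pde10a (3.84, 3.22 to 4.64), Pde4a (2.13, 1.92 to 2.34), Pde7b (1.38, 1.32 to 1.43) and Adcy10 (1.31, 1.07 to 1.55) were likewise higher there. Adcy5 was at 8.82 CPM with and 147 CPM without a Ucp1 UMI (-3.91, -4.28 to -3.59), and Pde1a (-1.62, -1.73 to -1.50), Pde7a (-1.33, -1.47 to -1.19) and Pde3b (-1.12, -1.16 to -1.08) were lower as well. Of 27 members with 20 UMIs in both sets together, 10 were at least 2-fold higher and 4 lower, beside 9.23% and 10.1% of all genes. Among the higher, Pde1c, Pde4b, Pde4c, Pde10a and Adcy7 had only 7, 10, 2, 6 and 3 UMIs in nuclei without a Ucp1 UMI. These members met the UMI limit through the set where they were high. At room temperature 4 of 30 were higher and 2 lower in mPRAT at 6 months, beside 3.98% and 7.34%. The log2 ratio of Prkar2b was 0.11 (0.08 to 0.15) in cold mPRAT, 0.43 (0.41 to 0.45) in mPRAT at 6 months and 0.37 (0.32 to 0.42) in cold iWAT.

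The same split was made in the younger mPRAT libraries. At 1 month a Ucp1 UMI was in 334 of 2513 adipocyte-like nuclei, and 1 of 30 members was higher and 1 lower, beside 1.78% and 8% of all genes. At 2 months it was in 841 of 3773, and 2 of 28 were higher and 3 lower, beside 1.86% and 6.81%. A Ucp1 UMI was also in 1.30% of 384 endothelial-like nuclei at 1 month and 4.74% of 211 at 2 months, with median depths of 906 and 848 UMIs against 1723 and 1673 in adipocyte-like nuclei. Thinned to 1000 UMIs, the adipocyte-like share was 9.78% at 1 month, against 4.76% of 42 macrophage-like nuclei, and 17.7% at 2 months, against 6.25% of 80 endothelial-like nuclei, the highest of the endothelial-, ASPC- and macrophage-like classes in each case. The counts of members are therefore not compared between ages. Adcy5 was lower in nuclei with a Ucp1 UMI at both ages, by a log2 ratio of -2.13 (-2.89 to -1.57) at 1 month and -2.44 (-2.71 to -2.21) at 2 months. Adcy3 had 0.90 (0.59 to 1.17) at 1 month, within 2-fold, and 1.27 (1.15 to 1.39) at 2 months. Pde3a was at 86.1 CPM with and 57.6 CPM without a Ucp1 UMI at 1 month and at 190.1 and 64.4 CPM at 2 months. At 1 month the ratios of Adcy10 (-0.68, -2.03 to 0.17) and Pde7b (-0.35, -0.66 to -0.06) were negative, while those of cold mPRAT were positive, and Pde4a had 0.27 (-0.21 to 0.67).

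In cold iWAT, with few such nuclei, the directions were those of cold mPRAT for Adcy3 (379.7 CPM with and 60.4 CPM without), Adcy5 (97.7 and 432 CPM), Pde4a (92.1 and 17.3 CPM), Pde7a (131 and 337 CPM) and Pde1a (327 and 742 CPM). Among other members the log2 ratios of cold iWAT were 0.34 (-0.39 to 0.92) for Adcy10 and 0.81 (0.72 to 0.90) for Pde7b, within 2-fold, and 1.06 (0.88 to 1.24) for Pde8a, which had 0.09 (-0.01 to 0.19) in cold mPRAT. In cold iWAT 8 of 27 members were at least 2-fold higher and 3 lower, beside 10.3% and 16.8% of all genes. Among the higher, Pde1b, Pde1c, Pde3a, Pde6g and Pde10a rested on 4, 6, 7, 9 and 5 UMIs in nuclei with a Ucp1 UMI. The interval of the Pde1b ratio, -0.39 to 2.29, included 0. Nuclei of 1 library are not replicates, and these ratios describe the library.

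The cold and room-temperature libraries of mPRAT can also be set side by side within each set of nuclei. Adcy3 in nuclei without a Ucp1 UMI was 84.2 CPM at room temperature and 88.7 CPM in the cold, while with a Ucp1 UMI it was 216 and 553 CPM. Adcy10 was higher in the cold in both sets, from 9.16 to 40.4 CPM without and from 28.2 to 101 CPM with a Ucp1 UMI. Adcy5 was lower in both, from 395 to 147 CPM without and from 84.4 to 8.82 CPM with. Pde7b went from 476 to 704 CPM without and from 552 to 1830.2 CPM with. The difference between the sets was not tested, and Ucp1 itself was at 199 CPM in all adipocyte-like nuclei at room temperature and 732 CPM in the cold.

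**Figure D5:**
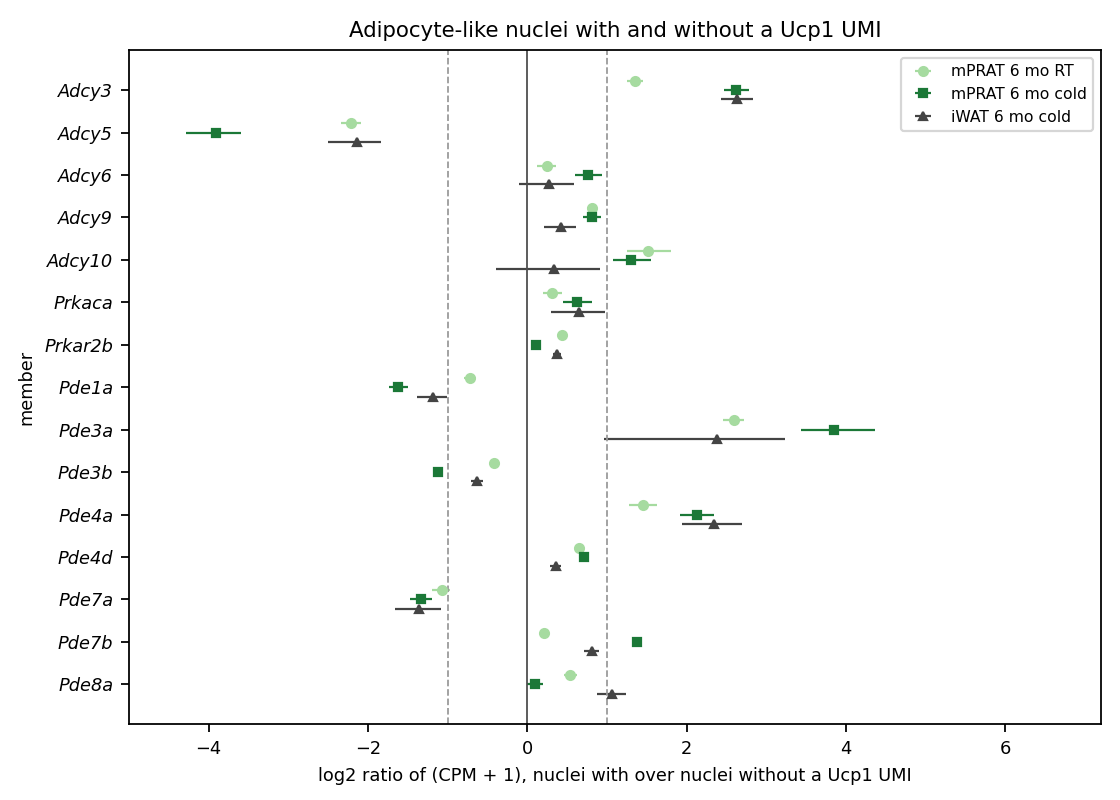
Log2 ratio of (CPM + 1) in adipocyte-like nuclei with over those without a Ucp1 UMI, within mPRAT at 6 months at room temperature, cold mPRAT and cold iWAT, for 15 members. Bars are 95% counting intervals and dashed lines mark 2-fold. Adcy3, Pde3a and Pde4a lie right of 1 and Adcy5 and Pde7a left of -1 in all 3 libraries; the Pde3a point of iWAT rests on 7 and 17 UMIs.

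Lists of other genes of the pathway were compared in the same way, with the shares of all genes as above. Of the receptors, 0 of 13 were higher and 2 lower in cold mPRAT, 0 of 17 higher and 5 lower in cold iBAT, and 1 of 14 higher and 1 lower in cold iWAT. The lower ones were Tshr, the thyrotropin receptor (-1.80 as a log2 ratio), and the secretin receptor Sctr (-1.43) in mPRAT. In iBAT they included the corticotropin receptor Mc2r (-3.73), Sctr (-1.75), Hcar1 (-1.57) and Ffar2 (-1.07). In iWAT the prostaglandin receptor Ptger3 was higher (1.62) and Ffar2 lower (-1.09). Among G protein subunits 0 of 6, 0 of 6 and 0 of 7 were higher in mPRAT, iBAT and iWAT, and only Gnal was lower, in mPRAT (-1.21) and iBAT (-1.40).

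Of PKA anchors and inhibitors none was higher (of 15, 17 and 14 in mPRAT, iBAT and iWAT), and Akap12 and the inhibitor Pkia were lower in mPRAT (-1.59 and -1.98) and iWAT (-2.35 and -1.91). The other cAMP binders gave 2 of 3 lower in mPRAT and iWAT and 0 of 3 in iBAT, namely the exchange factor Rapgef3 (-2.13 and -2.64) and Popdc2 (-1.72 and -1.04). None of the 7 CREB factors passed 2-fold in any depot. Of 5 lipolysis genes only Abhd5, the activator of the lipase Pnpla2, did, in iWAT (1.27). Transcripts known to be raised by cAMP gave 6 higher and 1 lower of 9 in mPRAT, 3 and 2 of 9 in iBAT and 2 and 2 of 8 in iWAT. Dio2 and Ucp1 were higher in all 3 depots, with log2 ratios of 1.76, 1.71 and 3.66 for Dio2. Nr4a3 was lower in mPRAT (-1.98) and iBAT (-3.22).

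Outside the adipocytes, 10 classes of nuclei with at least 50 nuclei in 3 or more libraries were compared by their median CPM. Adipocyte-like nuclei were the highest class for 11 of the 40 members (27.5%) and for 24% of all genes with at least 20 UMIs in them. The 11 were Prkar2b, Pde3b, Pde7b, Pde8a, Prkaca, Adcy5, Adcy10 and, at a median of 7.64 CPM or less, Pde6g, Pde6a, Pde6b and Pde6c. Pde6b (0.218 CPM) and Pde6c (0.201 CPM) had a median of 0 in the next class, ASPC-like nuclei. These summed to 447556 to 3655651 UMIs per library, against 2505843 to 70060163 for adipocyte-like nuclei. In each ASPC-like sum such levels come to under 1 UMI, so the rank of these 2 genes was not resolved. Pde6a had a median of 1.55 CPM, beside 1.22 CPM in macrophage-like nuclei. The macrophage-like sums were 88455 to 3266852 UMIs per library, in which such a level is few UMIs, so its rank was not resolved either. Mural-like nuclei, the pericytes and smooth muscle of vessels, were highest for 15 (37.5%), beside 6.58% of all genes. Prkar2b had a median of 2878 CPM in adipocyte-like and 392 CPM in endothelial-like nuclei, the next class, and Adcy10 20.5 and 4.12 CPM. Pde4d was higher in mural-like nuclei (3019 CPM) than in adipocyte-like ones (1759 CPM), as were Adcy3 (248 and 154 CPM) and Adcy6 (239.9 and 128 CPM). Among immune classes, T or NK-like nuclei were highest for Pde7a (723 CPM) and B-like nuclei for Pde4b (196 CPM).

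Promoter sequence was examined because cAMP acts on transcription through the cAMP response element, the palindrome TGACGTCA, and its core TGACG, which also occurs alone. Windows from 250 bases before to 50 bases after a start were taken from RefSeq (GRCm38.p6), which held 68 for 31 of the 40 members. On either strand, the palindrome was in 2 windows (2.94%), overlapping ones of Prkar1a that hold the same element, against 1.79% of all 32851 promoters. The core, which includes those within the palindrome, was in 16 windows (23.5%) of 14 members, against 20.8% of all. All 8 members higher in cold mPRAT or iBAT had windows, 17 in all, and 3 of these (17.6%) held a core: 1 each of Adcy7, Pde4a and Pde4b. The share was close to that of all promoters, and a match is a description of the letters only.
The last 100 bases before a start are shown for Adcy7 and Pde4a, as cold-higher members with the core, and for Adcy10, higher in the cold in all 3 depots and without it. Capitals mark the core, read here on the other strand as CGTCA.
Adcy7, chr8:88282892-88282991, plus strand, core beginning 28 bases before the start: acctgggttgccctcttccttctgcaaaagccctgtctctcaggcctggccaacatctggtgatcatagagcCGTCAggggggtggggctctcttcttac
Pde4a, chr9:21184001-21184100, plus strand, core beginning 50 bases before the start: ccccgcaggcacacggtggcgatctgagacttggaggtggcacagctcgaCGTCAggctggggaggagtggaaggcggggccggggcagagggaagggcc
Adcy10, chr1:165485083-165485182, plus strand, no core: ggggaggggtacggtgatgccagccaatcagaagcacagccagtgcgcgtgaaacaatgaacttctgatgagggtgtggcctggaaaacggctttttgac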

How the data were processed

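Single-nucleus RNA was counted in 12 libraries, 1 per combination of depot, age and temperature. The deposited matrices hold raw UMI counts per gene and barcode, which the authors made with Cell Ranger 7.0.0 on mm10, per the submitters' processing notes. Whether intronic reads were counted is not given in the sources used here, and the number of UMIs limits the precision of each value.

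Barcodes under 500 UMIs, under 300 genes or over 10% mitochondrial UMIs were left out. The highest Scrublet scores were removed as doublets, at 0.8% per 1000 nuclei, which left 96643 of 119035 barcodes. Nuclei were clustered in scanpy 1.11.5 (Python 3.11.15) on 2000 variable genes without the 40 members, with 30 principal components, 15 neighbours and Leiden resolution 1. Of 29 clusters 10 were adipocyte-like by their markers. UMIs were summed per library and class and scaled to CPM. Levels carry exact 95% Poisson intervals, and ratios carry intervals from 2000 Poisson redraws. Both cover counting error only. The ratios and limits were also run on simulated data, whose outcome is not given here and is not used as support. TMM factors came from edgeR 4.0.16 (R 4.3.3). Cold was also fitted over the 6 libraries of 3 depots at 6 months with depot as a block, by edgeR's quasi-likelihood test on summed counts (at least 20 UMIs in all) and by DESeq2 1.42.0. Gene lengths and positions came from GENCODE M21, which held 32235 of the 32285 gene IDs.

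Values in every library are given for the 12 members with the highest mean CPM and for those past 2-fold with at least 50 UMIs in a cold comparison. Members past it only in an age or depot comparison are named with that ratio, and the rest by range. The members and gene lists were chosen with earlier results of these data known. Alternatives changed the nucleus filters, doublets, scaling, CPM added, UMI minimum, thinning, clustering and the nuclei left out for other classes' markers.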

Additional observations from a re-analysis of the deposited data

Results flagged for a closer look

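Adcy6 differed in opposite directions past 2-fold between 2 and 6 months in different depots. In adipocyte-like nuclei of lPRAT the log2 ratio of 6 over 2 months was 1.002, from 48.3 CPM in the younger and 97.7 CPM in the older library. The iBAT ratio was -1.04, from 259 and 125 CPM. With 1 library per group the difference between the depots was not tested. With nuclei thinned to 1000 UMIs the lPRAT ratio was 0.89.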

How the results depend on the processing

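The labels give no replicate numbers, and the paired analysis was that of cold with depots as pairs, added with its alternatives after seeing the data. Against 0 members by edgeR, it gave 0 with total UMI scaling, beside 1 of 18585 genes, and 9 with DESeq2, beside 1569 of 15342. With no minimum of UMIs it gave 7, beside 702 of 26001 genes. With depot, age and temperature fitted over all 12 libraries it gave 5, beside 705 of 19930 genes. With 1 depot left out it gave 0 to 9, beside 0 to 1878 genes. The cause of these differences was not tested. Over the 10 comparisons and 12 alternatives, 108 of 120 counts of members past 2-fold stayed within 1.5 times the reported count. With 10 CPM added, which damps low genes, the counts were 8 in place of 13 for cold iBAT, 3 in place of 5 for cold iWAT, 3 in place of 12 for 6 over 1 month in mPRAT, 1 in place of 7 in iBAT and 2 in place of 8 for 6 over 2 months in lPRAT. For depots they were 6 in place of 10 for mPRAT over lPRAT, 4 in place of 9 for mPRAT over iWAT and 9 in place of 15 for iBAT over iWAT. In the mPRAT age comparison a minimum of 50 UMIs gave 7 and thinned nuclei gave 6. In lPRAT thinned nuclei gave 1, and nuclei with no UMI of the mural and ASPC markers, an alternative chosen after seeing the data, gave 4.

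Of 87 single ratios past 2-fold with at least 50 UMIs, 45 stayed past it under each of 10 alternatives, 42 did not under at least 1, and 0 changed sign. TMM scaling moved the split in mPRAT from 2 higher and 10 lower to 3 and 8 for 6 over 1 month. The mean of per-nucleus CPM moved mPRAT over iBAT from 2 and 6 to 4 and 5, mPRAT over iWAT from 6 and 3 to 7 and 2, and 6 over 1 month in iBAT from 2 and 5 to 1 and 5. TMM shifted the median log2 ratio of all genes by 0.14 for 6 over 1 month in mPRAT.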

Other observations

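Pde7b was also higher in the cold outside adipocytes. In macrophage-like nuclei its level was 383 CPM at room temperature and 1106 CPM in the cold in mPRAT, 274 and 1818 CPM in iBAT and 444 and 595 CPM in iWAT at 6 months. Prkar2b, the member with the most adipocyte RNA, was counted in the same macrophage-like nuclei at 138 and 141 CPM in mPRAT, 1234 and 342 CPM in iBAT and 236 and 194 CPM in iWAT. What free adipocyte RNA adds to Pde7b there was not tested.

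Several contrasts between mPRAT and iBAT were already present in younger animals. Pde3b was higher in mPRAT by a log2 ratio of 1.24 (1.21 to 1.28) at 1 month and 1.12 (1.10 to 1.15) at 2 months, and by 0.72 (0.71 to 0.74) at 6 months. For Pde3a the ratio was -1.04 (-1.22 to -0.88), -1.65 (-1.76 to -1.54) and -1.23 (-1.30 to -1.16) at these ages, and for Pde4a -1.59 (-1.77 to -1.42), -1.76 (-1.93 to -1.61) and -1.43 (-1.52 to -1.33). For Adcy5 it was 1.83 (1.64 to 2.00) at 1 month, 2.29 (2.20 to 2.40) at 2 months and 4.01 (3.91 to 4.12) at 6 months, and 4.14 (3.95 to 4.32) between the cold libraries.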
